A study of Mus musculus with 12 samples.

Results

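Blastocysts of the HFD arm that had received an siRNA against Nampt (HFD_siNampt, 2 libraries) were compared with the untreated controls of the same arm (HFD_C, 2 libraries). These 4 libraries were taken by their labels from the 12 of the series, and all measured genes entered the comparison. Each library held poly(A) RNA of 10 blastocysts with the genotype ICR_WT (wild type of an outbred stock), produced by in vitro fertilization of superovulated oocytes and cultured in KSOM medium to 96 hours post insemination. The series has 6 groups of 2 libraries, in which embryos of the ND and HFD arms were controls (C), received a non-targeting siRNA (siNT) or received siNampt. The siRNAs were electroporated into zygotes at 3 to 6 hours post insemination. ND and HFD are not spelled out in the labels, while the series title speaks of normal weight and obese mice. The labels do not state if controls went through electroporation too, so the comparison holds the siRNA and, possibly, the pulse. Replicates 1 and 2 carry the batch labels 1 and 2. Separate parents are not stated for the pools, so p-values measure only the spread between these libraries, which may be technical.

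Nampt, also called visfatin in its secreted form, catalyses the rate-limiting step by which cells rebuild NAD from nicotinamide. NAD carries electrons for glycolysis, the tricarboxylic acid (TCA) cycle and the respiratory chain, and it is consumed by sirtuins and ADP-ribose polymerases. The blastocyst consists of an outer epithelium, the trophectoderm, and an inner cell mass that gives rise to the epiblast and the primitive endoderm, and its cells divide rapidly before implantation.

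Between 42473129 and 50503064 expected counts were assigned to genes per library, a 1.19-fold range, and replicates of a group correlated at 0.981 to 0.988 across genes. A filter on low counts kept 14743 of 24411 genes. Markers of all 3 blastocyst lineages were measured, 23 of 24 listed for the trophectoderm, 24 of 24 for the inner cell mass and 18 of 18 for the primitive endoderm. Summed markers of cumulus and granulosa cells, which surround the egg, lay at 2.54 to 3.42 CPM (counts scaled to library size) in the 4 libraries, with 4 of 12 genes counted deeply enough. Sperm markers lay at 0.897 to 1.75 CPM. Blood and leukocyte markers summed to 15.4 to 24.6 CPM, with 1 of 7 genes counted deeply enough.

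Nampt stood lower in HFD_siNampt than in the controls. It lies on chromosome 12 from 32820335 to 32853369 (RefSeq, GRCm38.p6). It was at 67.0 and 57.3 CPM in HFD_C, at 61.3 and 66.0 CPM in HFD_siNT and at 50.3 and 44.0 CPM in HFD_siNampt (replicates 1 and 2). Both siNampt libraries lay below all 4 other HFD libraries. The group means were 62.1 CPM ± 6.83 in HFD_C and 47.2 CPM ± 4.46 in HFD_siNampt (SD, n = 2). The difference of mean log2 CPM was -0.39, a mean level that decreased by 23.8%, and the exact two-sided permutation test gave p = 0.333, the smallest value that 2 against 2 libraries allow. In edgeR's quasi-likelihood fit the log2 fold change was -0.40 (SE 0.24, adjusted p = 0.838). It was -0.41 in batch 1 and -0.38 in batch 2. When counts were corrected for the GC content and length of transcripts (the GC correction below, chosen after seeing the data), it was -0.23. In the ND arm Nampt was at 54.2 and 38.2 CPM in C and at 53.9 and 37.7 CPM in siNampt, a log2 fold change of -0.01 (SE 0.24). The difference between the arms was -0.38 (SE 0.34, edgeR adjusted p = 0.976), so a different response of Nampt in the arms was not shown.

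Among the other genes of NAD supply, Nmrk1, the kinase that makes NAD precursors from nicotinamide riboside, was at 52.2 and 50.5 CPM in HFD_C, 51.5 and 48.7 CPM in HFD_siNT and 37.5 and 39.0 CPM in HFD_siNampt. Its siNampt libraries lay below the other 4, with a log2 fold change of -0.42 (SE 0.18) that was -0.18 after the GC correction. Naprt, which starts NAD synthesis from nicotinic acid, was at 1.39 and 1.38 CPM in the controls and at 2.29 and 2.81 CPM in HFD_siNampt. Nmnat2, one of the enzymes that complete NAD, was at 0.631 and 0.498 CPM in HFD_C and at 1.16 and 1.96 CPM in HFD_siNampt, but its siNT libraries were as high, at 1.10 and 1.92 CPM. Of the 18 measured genes of NAD synthesis and use, 8 lay above 0 and 10 below, with a median of -0.01 beside 0.03 over all genes, and 0 passed. At an unadjusted p under 0.05 the list held 1 higher gene, Nmnat2, and 1 lower gene, Nmrk1, where 2.57% and 3.08% of all genes lay.

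**Figure D1:**
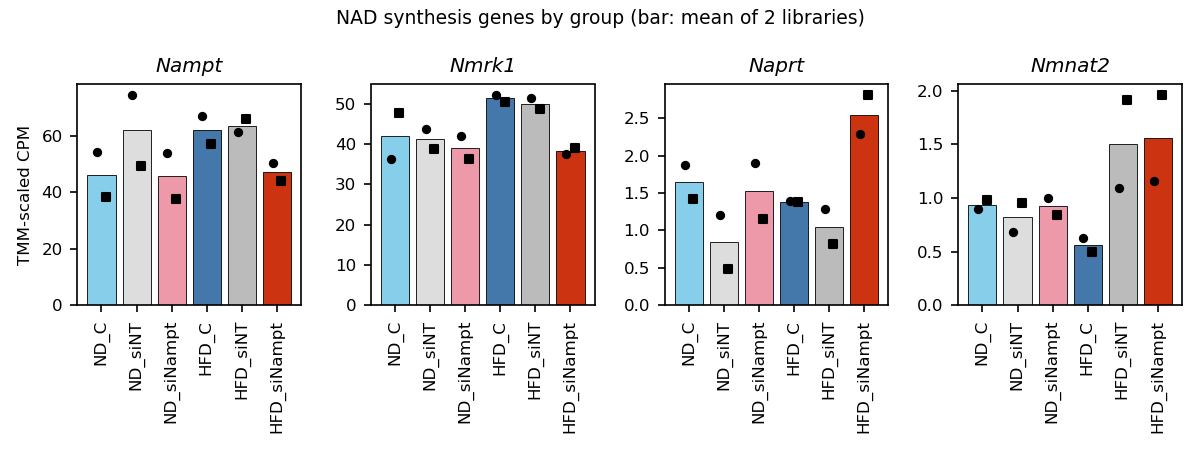
Nampt and 3 other genes of NAD supply in the 6 groups, in TMM-scaled CPM (vertical axes from 0), with bars at group means, circles for replicate 1 and squares for replicate 2. Nampt and Nmrk1 were lowest among the HFD libraries in HFD_siNampt, and Nmnat2 was as high in HFD_siNT as in HFD_siNampt.

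Across all genes, edgeR called 0 of 14743 at an adjusted p under 0.05 (0% called), and the smallest adjusted p was 0.838, which is also the adjusted p of every gene named below with a fold change of HFD_siNampt against HFD_C, unless another is given. At an unadjusted p under 0.05 there were 833 genes (5.65%), 379 higher and 454 lower. With limma on the deposited TPM values that split was 606 higher and 270 lower. Both siNampt libraries lay above both controls for 2551 genes (17.3%) and below them for 2149 (14.6%). They lay above all 4 other HFD libraries for 1380 genes (9.36%) and below them for 1168 (7.92%). The genes in the following paragraphs are therefore described by their values and did not pass the test. The median SE of log2 fold changes was 0.225 for genes of at least 5 CPM.

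Cyb5a stood farthest apart by its p-value. It encodes cytochrome b5, an electron carrier of the endoplasmic reticulum that serves fatty acid desaturation and sterol synthesis, and lies on chromosome 18 from 84851338 to 84879871. It was at 138 and 134 CPM in HFD_C, 100.5 and 93.0 CPM in HFD_siNT and 73.7 and 53.6 CPM in HFD_siNampt, so that the 3 groups did not overlap and siNT lay between. The log2 fold change was -1.10 (SE 0.20, unadjusted p = 0.000152), -0.90 in batch 1, -1.32 in batch 2 and -1.04 after the GC correction. DESeq2 called it with an adjusted p of 0.00258, against 0.838 in edgeR. In the ND arm its log2 fold change was -0.02 (SE 0.20), and the difference between the arms was -1.07 (SE 0.29, edgeR adjusted p = 0.976).

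The other 11 of the 12 lower genes of smallest p, among those of at least 1 CPM with groups that did not overlap, also lay below the 2 siNT libraries in both siNampt libraries. This is no separate support, since the choice favoured low siNampt values. Of all genes, 2149 lay below both controls and 1168 below all 4 other HFD libraries. Havcr1, a cell-surface receptor for phosphatidylserine, was at 809 and 707 CPM in HFD_C and at 491 and 505 CPM in HFD_siNampt, a log2 fold change of -0.61 (SE 0.14) that was -0.36 after the GC correction. Zfp68, a zinc finger gene, was at 25.4 and 24.1 CPM in HFD_C and at 13.5 and 14.1 CPM in HFD_siNampt (-0.84, SE 0.19, corrected -0.68). In both genes the libraries of a group lay close together.

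Some of the lower genes serve cell division. Mzt1, a small subunit of the gamma-tubulin complexes that nucleate microtubules, was at 88.6 and 75.9 CPM in HFD_C and 50.9 and 44.5 CPM in HFD_siNampt. Depdc1a, a gene of dividing cells, was at 66.0 and 40.2 CPM against 27.5 and 28.2 CPM. Their log2 fold changes were -0.79 (SE 0.18) and -0.93 (SE 0.23), and after the GC correction -0.45 and -0.59. In Depdc1a replicate 1 of the controls was well above replicate 2, while the siNampt libraries lay close together.

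Pnpt1, a mitochondrial RNA exonuclease, was at 147 and 111 CPM in HFD_C and 76.6 and 73.3 CPM in HFD_siNampt (-0.78, SE 0.20, corrected -0.52). Cept1, which makes phosphatidylcholine and phosphatidylethanolamine, was at 261 and 214 CPM in the controls and 168 and 157 CPM with siNampt (-0.55, SE 0.14, corrected -0.29). Ankrd32, now named Slf1 and known from DNA repair, was at 26.5 and 24.9 CPM against 15.7 and 14.8 CPM (-0.75, SE 0.19, corrected -0.52). All 3 lay lower in both batches. Mospd1, on the X chromosome, had a log2 fold change of -0.63 (SE 0.16, corrected -0.31). Fv1, a gene of retroviral origin that restricts murine leukaemia virus, had 103 and 85 counts in HFD_C and 24 counts in each siNampt library.

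The 12 higher genes of smallest p held 2 predicted genes that are not described, and of the other 10 Lpin3 was the only gene whose siNampt libraries did not both lie above all 4 other HFD libraries. Here too the choice favoured high siNampt values. Of all genes, 2551 lay above both controls and 1380 above all 4 other HFD libraries. Id3, an inhibitor of basic helix-loop-helix factors and a known target of BMP signals, was at 24.3 and 23.1 CPM in HFD_C, 34.2 and 27.2 CPM in HFD_siNT and 43.0 and 50.3 CPM in HFD_siNampt. Its log2 fold change was 0.98 (SE 0.27) and 0.82 after the GC correction. Sox17, a transcription factor of the primitive endoderm, was at 17.8 and 16.5 CPM in HFD_C, 18.3 and 19.1 CPM with siNT and 23.8 and 32.8 CPM with siNampt (0.72, SE 0.22, corrected 0.47). The siNT libraries lay near the controls for Sox17 and between the groups for Id3.

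Mdk, the heparin-binding growth factor midkine, was at 49.7 and 53.1 CPM in HFD_C and 70.3 and 98.8 CPM in HFD_siNampt, and replicate 1 with siNampt was nearly level with replicate 2 of siNT, at 70.2 CPM. Cxcl14, a chemokine, was at 1.78 and 3.05 CPM in the controls and 6.22 and 7.44 CPM with siNampt. Their log2 fold changes were 0.72 (SE 0.21) and 1.497 (SE 0.43), and 0.47 and 1.38 after the GC correction.

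Lpin3, a phosphatidate phosphatase of lipid synthesis, was at 2.07 and 2.13 CPM in HFD_C and 5.07 and 4.61 CPM in HFD_siNampt, with siNT at 4.84 and 3.34 CPM. Uba1, the X-linked enzyme that activates ubiquitin, was at 104 and 115 CPM in the controls and 156 and 148 CPM with siNampt (0.48, SE 0.14, corrected 0.35). Limd2 was at 18.5 and 18.7 CPM against 27.7 and 34.0 CPM (0.73, SE 0.19, corrected 0.58). For Uba1 the siNT libraries, at 124 and 114 CPM, overlapped with the controls. For Trim8, a ubiquitin ligase, the log2 fold change of 0.74 (SE 0.21) was 0.35 after the GC correction, for Rbm42, an RNA-binding protein, 0.77 (SE 0.23) became 0.41, and for Lsm4, a subunit of RNA decay and splicing complexes, 0.44 (SE 0.13) became 0.14.

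**Figure D2:**
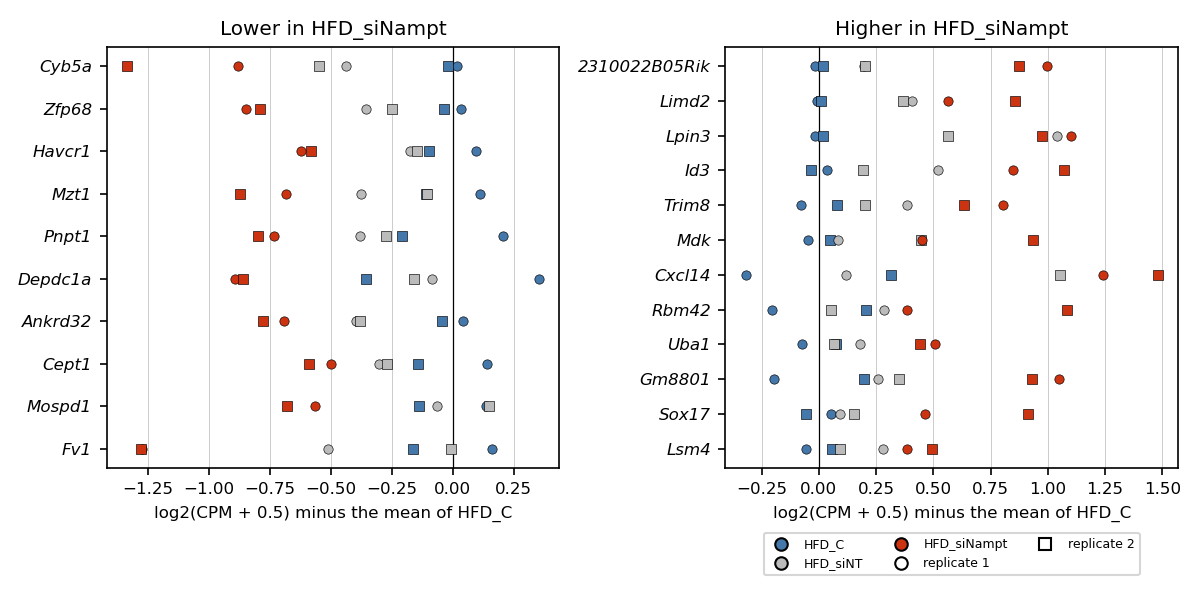
Lower and higher genes of smallest p in the 6 HFD libraries (10 of the 12 lower and all 12 higher), as log2(CPM + 0.5) minus the mean of HFD_C (horizontal axes), with colours for groups and circles and squares for replicates 1 and 2. HFD_siNT libraries lie between the other groups for many of these genes, as for Cyb5a.

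The fold changes followed the GC content of the transcripts. Over 5 equal bins of genes from lowest to highest GC, the median log2 fold change was -0.20, -0.08, 0.02, 0.14 and 0.31. Of the 454 lower genes at an unadjusted p under 0.05, 317 lay in the lowest bin, and of the 379 higher genes 195 lay in the highest. The gradient ran from -0.22 to 0.30 in batch 1 and from -0.13 to 0.18 in batch 2, and in the ND arm from -0.03 to 0.04. By library, the lowest bin stood at 0.19 and the highest at -0.23 in HFD_C replicate 1 relative to the mean of the 12 libraries, and at -0.18 and 0.23 in HFD_siNampt replicate 2. The other libraries of the comparison lay between them. After the correction for GC content and length the medians by bin ran from -0.01 to 0.02, and 436 genes lay at an unadjusted p under 0.05, 211 higher and 225 lower. Corrected medians are given beside the medians of the gene lists below, and the part of GC content in each result was not tested further.

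**Figure D3:**
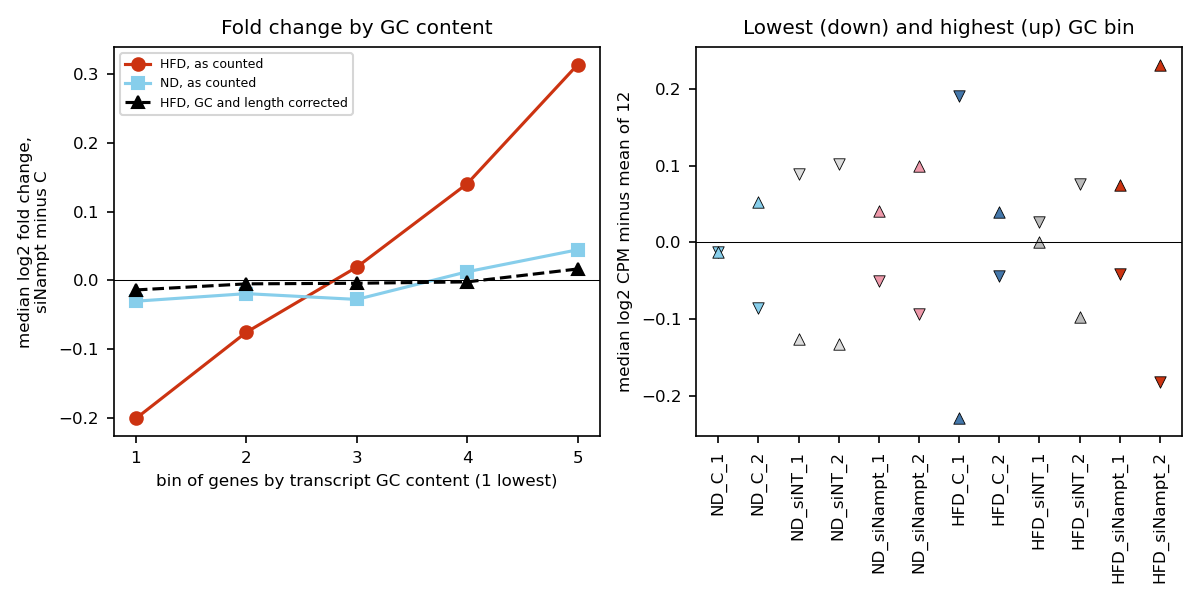
Left, median log2 fold change (vertical axis) by bin of transcript GC content (5 bins) in HFD, in ND and in HFD after correction; right, the median log2 CPM of the lowest and highest GC bins in each library relative to the mean of the 12. HFD runs from -0.20 to 0.31 as counted, and HFD_C replicate 1 and HFD_siNampt replicate 2 lie at opposite ends.

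Transcripts of the Y chromosome stood lower in HFD_siNampt. Their summed level was 317 and 285 CPM in HFD_C, 309 and 197 CPM in HFD_siNT, and 161 and 65.7 CPM in HFD_siNampt, while Xist, the RNA that silences an X chromosome in female cells, was at 105.5 and 103 CPM in HFD_C, 103 and 91.3 CPM in HFD_siNT and 140.0 and 143 CPM in HFD_siNampt. Both siNampt libraries lay below the other HFD libraries in the first measure and above them in the second. Replicates of ND_C and ND_siNampt also lay far apart. ND_C replicate 2, without siRNA, had a Y-linked sum of 115 CPM and Xist at 187 CPM, against 324 and 71.1 CPM for replicate 1. In ND_siNampt, replicate 2 had 90.9 and 169 CPM against 349 and 32.35 CPM for replicate 1. The ND_siNT sums were 314 and 426 CPM, with Xist at 72.4 and 83.9 CPM. Whether the difference in HFD exceeds such variation was not tested. In HFD_C Ddx3y, an RNA helicase, was at 80.7 and 87.0 CPM, against 38.2 and 16.9 CPM in HFD_siNampt (-1.60, SE 0.57). Eif2s3y, a translation factor subunit, was at 206 and 173 CPM against 103 and 42.4 CPM (-1.38, SE 0.61). Of 7 measured Y-linked genes 7 lay below 0, with a median of -1.52 (0.03 over all genes, corrected -1.38), and 4 were lower at an unadjusted p under 0.05 (3.08% of all genes), namely these and Uty and Zfy1, a gene with a near copy in Zfy2. Genes of the X chromosome had a median of 0.13 over 573 genes (0.20 after the GC correction), against 0.03 over 14097 autosomal genes (-0.01). Y-linked transcripts come from male embryos and Xist from female ones, and in bulk RNA fewer cells of a type and less RNA per cell cannot be told apart. With Y-linked expression as a covariate, a fit added after the data were seen, 957 genes lay at an unadjusted p under 0.05 and 0 passed adjustment, and Xist turned to -0.70. The covariate itself differed between the groups, so the part of the pools' sex composition in single genes was not tested.

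Genes of mitosis stood lower as a group in HFD_siNampt than in HFD_C. Of 35 measured members 29 had a log2 fold change below 0 (45.9% of all genes did), the siNampt libraries lay below both controls for 20 (14.6% of all genes), and 10 were lower at an unadjusted p under 0.05 (3.08% of all genes), while 0 were higher at that p and 0 passed adjustment. The median was -0.28, beside 0.03 over all genes. It was -0.33 in batch 1 and -0.23 in batch 2 (-0.05 in the ND arm), and between -0.24 and -0.33 when each of the 4 libraries was left out. After the GC correction the median was -0.19 (-0.003 over all genes), with 30 of 35 below 0. At an unadjusted p under 0.05 the corrected list held 2 members, where 3% of all 14516 corrected genes lay. With the Y-linked covariate the median was -0.31. The median of siNT against C, which shares the control libraries, was -0.16, and that of siNampt against siNT was -0.08. By these medians the siNT libraries lay between the other groups.

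Ccnb1, the cyclin B1 that drives cells into mitosis with Cdk1, was at 973 and 872 CPM in HFD_C, 713 and 904 CPM in HFD_siNT and 600.2 and 717 CPM in HFD_siNampt, so both siNampt libraries lay below both controls and replicate 1 of siNT overlapped with siNampt. Its log2 fold change was -0.49 (SE 0.16, corrected -0.28). Cdk1 itself was at 415 and 374 CPM in the controls and 330 and 292 CPM with siNampt (-0.34, SE 0.15, corrected -0.29). Smc2 and Smc4, the core of the condensin complexes that compact chromosomes, were at 182 and 146 CPM against 138 and 99.1 CPM, and at 308 and 256 CPM against 231 and 199 CPM. Prc1, which bundles the microtubules of the central spindle, was at 283 and 203 CPM in HFD_C and 139 and 182 CPM in HFD_siNampt (-0.59, SE 0.23, corrected -0.47), with siNT at 191 and 212 CPM. Replicate 1 of the controls was the highest of the 4 libraries for each of these 5 genes. In ND_C Ccnb1 was at 781 and 859 CPM, Cdk1 at 314 and 333 CPM and Prc1 at 162 and 214 CPM. Smc2 was there at 108 and 115 CPM and Smc4 at 213 and 209 CPM. Except for Prc1, both HFD_C libraries lay above both ND_C libraries. The HFD_siNampt libraries overlapped with ND_C, except for Ccnb1, where they lay lower. Whether the HFD_C level was high or the siNampt level low was not tested.

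Other members at an unadjusted p under 0.05 were Ect2, the exchange factor of cytokinesis, at -0.47 (SE 0.18), the kinetochore genes Ndc80 and Nuf2 at -0.40 (SE 0.17) and -0.42 (SE 0.18), and the checkpoint genes Mad2l1 and Bub1 at -0.38 (SE 0.15) and -0.32 (SE 0.15). The 6 members above 0 included Cdc20, an activator of the anaphase-promoting complex, at 188 and 213 CPM in HFD_C and 179 and 276 CPM in HFD_siNampt, and Cdc25b, the phosphatase that activates Cdk1, at 2.02 and 1.47 CPM against 4.02 and 2.41 CPM. Plk1 was at 44.3 and 53.8 CPM in the controls and 31.4 and 57.1 CPM with siNampt, so that its libraries overlapped. The sign of Cdc20 turned without HFD_siNampt replicate 2, at -0.19, and that of Plk1 without HFD_siNampt replicate 1, at 0.23. Mad2l1 turned to 0.06 and Bub1 to 0.03 when the GC correction was combined with leaving out HFD_siNampt replicate 2 and replicate 1, respectively. In the list of DNA replication and S phase 21 of 34 genes lay below 0 (45.9% of all genes), with a median of -0.04 (corrected -0.02), and the difference between the lists was not tested.

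Many mitotic genes carry in their promoters the CHR letters TTTGAA and CCAAT boxes, which are known binding letters of the DREAM complex and of NF-Y. To show them, the windows from 250 bases before to 50 bases after the first listed start (RefSeq, GRCm38.p6) of 3 members are printed 5′ to 3′ on the gene's strand. Capitals mark the letters found by searching TTTGAA and CCAAT on both strands, so TTCAAA is TTTGAA on the other strand. Ccnb1 lies at chr13:100786437-100786736 (- strand), Smc2 at chr4:52438971-52439270 (+ strand) and Prc1 at chr7:80294201-80294500 (+ strand).
Ccnb1: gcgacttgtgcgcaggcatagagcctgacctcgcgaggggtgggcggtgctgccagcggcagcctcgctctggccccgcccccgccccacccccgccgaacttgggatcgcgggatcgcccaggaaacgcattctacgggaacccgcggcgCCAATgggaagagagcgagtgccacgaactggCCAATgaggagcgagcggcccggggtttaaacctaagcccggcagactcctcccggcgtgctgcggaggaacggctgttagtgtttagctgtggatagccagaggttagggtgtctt
Smc2: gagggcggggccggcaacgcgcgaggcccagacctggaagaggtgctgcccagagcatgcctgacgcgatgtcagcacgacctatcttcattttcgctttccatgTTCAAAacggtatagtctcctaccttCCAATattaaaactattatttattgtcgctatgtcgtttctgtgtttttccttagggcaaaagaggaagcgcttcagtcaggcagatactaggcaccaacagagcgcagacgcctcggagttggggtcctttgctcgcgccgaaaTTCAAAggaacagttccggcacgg
Prc1: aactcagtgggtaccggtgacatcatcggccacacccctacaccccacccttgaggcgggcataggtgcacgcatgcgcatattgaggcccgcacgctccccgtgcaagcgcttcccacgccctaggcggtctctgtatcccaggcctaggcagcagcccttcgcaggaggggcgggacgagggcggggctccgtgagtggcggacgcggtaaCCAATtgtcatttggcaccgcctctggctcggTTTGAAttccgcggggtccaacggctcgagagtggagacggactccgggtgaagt
Of the 35 members 29 had a window in the table, and TTTGAA stood in 20 of them (69.0%), against 1465 of 11718 windows of all genes tested (12.5%). CCAAT stood in 23 of 29 (79.3%), against 39.6% of all. Of the 364 windows of genes lower at an unadjusted p under 0.05, 67 held TTTGAA (18.4%), and of the 305 of higher genes 34 did (11.1%). For CCAAT these shares were 40.1% and 39.3%. Among the mitosis members lower at that p, 5 of 9 windows held TTTGAA (55.6%) and 6 of 9 held CCAAT (66.7%). The window of Ccnb1 held CCAAT 2 times and TTTGAA 0 times, that of Smc2 held TTTGAA 2 times and CCAAT 1 time, and that of Prc1 held each 1 time. These matches describe letters and the data do not bear on the binding of a factor.

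**Figure D4:**
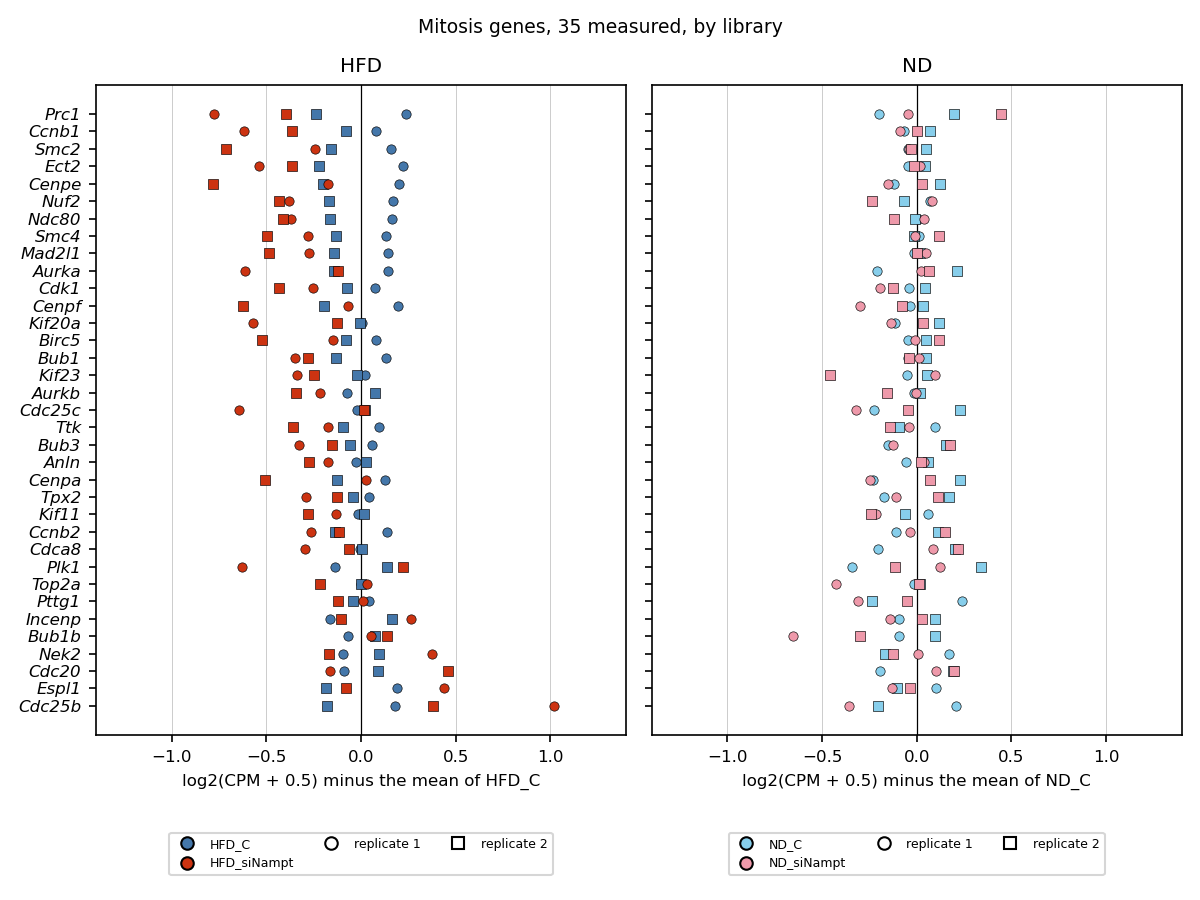
The 35 measured mitosis genes in HFD and ND, as log2(CPM + 0.5) minus the mean of the arm's controls (horizontal axes), with circles for replicate 1 and squares for replicate 2. In HFD 20 members have both siNampt libraries below both controls, while in ND the libraries mix. Each arm is centred on its own controls, so levels are not compared between the arms.

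Genes of the TCA cycle stood slightly lower. Of 27 members 19 lay below 0 (45.9% of all genes) with a median of -0.11, and the siNampt libraries lay below both controls for 9 (14.6% of all genes). The median was -0.18 in batch 1, -0.11 in batch 2 and -0.12 after the GC correction. Dld, a subunit shared by the mitochondrial dehydrogenase complexes, was at 358 and 262 CPM in HFD_C and 222 and 204 CPM in HFD_siNampt (-0.54, SE 0.16, corrected -0.24). Sucla2, a subunit of succinyl-CoA synthetase, was at 650.2 and 504 CPM against 418 and 467 CPM, and Sdhd, which anchors succinate dehydrogenase, at 412 and 348 CPM against 323 and 282 CPM. Control replicate 1 was the highest of the 4 libraries in each of the 3.

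The nuclear genes of oxidative phosphorylation split by batch: their median was 0.14 in batch 1 but -0.19 in batch 2 (41 of 72 below 0, median -0.04, corrected -0.11). Without HFD_siNampt replicate 2 the median was 0.10, and without replicate 1 it was -0.19. Atp5f1, now Atp5pb, a stalk subunit of ATP synthase, was at 1532 and 1351 CPM against 1202 and 1058 CPM, and Uqcrc2, a core protein of complex III, at 548 and 519 CPM against 407 and 467 CPM, but Uqcrc2 turned to 0.03 when the GC correction was combined with leaving out HFD_C replicate 2. Ribosomal protein genes of the cytosol had a median of 0.06 (corrected 0.02), with 56 of 81 above 0. Their leading members Fau and Rpl36 were at 0.31 (SE 0.12) and 0.32 (SE 0.14), and turned to -0.06 and -0.09 after the GC correction. Both families have many processed copies in the genome, so their counts are uncertain.

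Proteasome genes had a median of -0.12 (corrected -0.06) with 24 of 33 below 0. Psmc6 and Psma1, subunits of the proteasome's base and core, stood at -0.44 (SE 0.15) and -0.34 (SE 0.14), and at -0.06 and -0.10 after the GC correction. In glycolysis and sugar transport 2 of 23 genes were higher at an unadjusted p under 0.05 (2.57% of all genes) and 0 were lower (3.08%). Txnip, which limits glucose uptake, was at 41.3 and 40.3 CPM in HFD_C and 61.1 and 49.4 CPM in HFD_siNampt, with siNT at 47.2 and 51.2 CPM. Pfkl, the liver-type phosphofructokinase, was at 5.03 and 9.68 CPM against 14.1 and 11.4 CPM.

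Among the consumers of NAD 0 genes passed the test. Of the sirtuins, deacylases that need NAD, 7 of 7 measured genes lay above 0 with a median of 0.35 (54.1% of all genes lay above 0). After the GC correction 6 of 7 did with a median of 0.16 (-0.003 over all genes). Sirt6 was at 6.44 and 7.23 CPM in HFD_C and 8.06 and 10.6 CPM in HFD_siNampt, and Sirt3, a mitochondrial sirtuin, at 8.10 and 10.4 CPM against 10.7 and 13.9 CPM. By batch 4 of 7 lay above 0 in both. Among ADP-ribose polymerases and hydrolases, Oard1, which removes ADP-ribose, was at 126 and 141 CPM against 96.6 and 106 CPM (-0.40, SE 0.14). Parp14, an interferon-linked member, was at 1.44 and 1.22 CPM in HFD_C, 1.95 and 2.43 CPM in HFD_siNT and 2.35 and 2.62 CPM in HFD_siNampt. Parp2, which responds to DNA breaks, stood at -0.28 (SE 0.15).

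The medians of trophectoderm and primitive endoderm markers differed in sign between the batches, and that of inner cell mass markers did not. Inner cell mass markers had a median of 0.13 (corrected 0.18), with 18 of 24 above 0, 0.17 in batch 1 and 0.20 in batch 2, against -0.36 in the ND arm. The median of siNT against C, which shares the controls, was also 0.13. Pou5f1, Sox2, Esrrb and Zfp42 lay above 0, while Nanog and Tdgf1 were among the 6 members below 0. The members described next were picked by p. Etv5, an ETS factor downstream of FGF signals, was at 13.5 and 16.9 CPM in HFD_C and 23.5 and 23.4 CPM in HFD_siNampt (0.62, SE 0.27, corrected 0.51). Utf1, a pluripotency factor, was at 64.8 and 79.5 CPM against 71.8 and 149 CPM, so its difference rested on replicate 2, and without that library its log2 fold change was -0.04. Prdm14, a regulator of naive pluripotency, was at 2.53 and 3.01 CPM against 6.22 and 3.65 CPM.

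Primitive endoderm markers had a median of 0.22 (12 of 18 above 0), which was 0.67 in batch 1 and -0.33 in batch 2, and -0.03 after the GC correction. Gata6 was at 114 and 102 CPM in HFD_C and 157 and 120 CPM in HFD_siNampt, and Gata4 at 8.90 and 17.0 CPM against 28.3 and 14.5 CPM. Both are GATA factors of this lineage, and both turned below 0 when the GC correction was combined with leaving out HFD_siNampt replicate 1. Dab2, an endocytic adaptor of the endoderm, was at 857 and 940 CPM against 423 and 826 CPM, a difference that came mainly from replicate 1.

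Trophectoderm markers had a median of 0.01 (corrected -0.08), with 13 of 23 above 0 (0.21 in batch 1, -0.18 in batch 2, 0.25 in the ND arm). Dppa1 stood lowest by p, at 2355 and 1955 CPM in HFD_C, 2009 and 2188 CPM in HFD_siNT and 1665 and 1402 CPM in HFD_siNampt (-0.49, SE 0.14, corrected -0.27). The keratin Krt8 was at 1253 and 1421 CPM against 1451 and 1695 CPM (0.23, SE 0.13), and Krt19 at 6.64 and 7.79 CPM against 12.2 and 10.9 CPM, a level that siNT shared at 11.8 and 9.33 CPM. In the list of tight junction and cavity genes, Aqp9, an aquaglyceroporin, was at 66.3 and 90.9 CPM against 41.7 and 58.9 CPM, and Pard3, a polarity scaffold, at 22.9 and 26.2 CPM against 36.7 and 30.5 CPM.

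In the signalling lists single members stood apart. Map2k2, the kinase MEK2, was at 18.8 and 22.2 CPM in HFD_C and 25.8 and 32.1 CPM in HFD_siNampt. Of 24 genes of FGF and ERK signalling 3 were higher (2.57% of all genes) and 2 lower (3.08%) at an unadjusted p under 0.05.

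Bmp4, a ligand of the BMP pathway, was at 6.77 and 8.11 CPM in HFD_C and 13.5 and 15.2 CPM in HFD_siNampt, with siNT at 7.99 and 11.4 CPM (0.95, SE 0.41, corrected 0.93). Its siNampt libraries lay above all 4 others, as did those of Id3, a known target of this pathway that was picked by its small p. Of its relatives in the same list, Id1 lay only slightly above 0 and Id2 lay below 0. Smad7, which inhibits TGF-beta and BMP signals, was at 15.7 and 17.6 CPM against 25.9 and 19.1 CPM. Of the list's 25 genes 19 lay above 0 with a median of 0.17 (corrected 0.12). Yap1, the coactivator held back by Hippo signals, was at 12.4 and 13.7 CPM against 22.8 and 17.6 CPM (0.63, SE 0.24, corrected 0.54). Among insulin and AMPK genes Rictor, a subunit of mTORC2, stood at -0.44 (SE 0.18).

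Lipid genes stood on both sides. Idi1, an enzyme of cholesterol synthesis, was at 267 and 170 CPM in HFD_C, 254 and 252 CPM in HFD_siNT and 148 and 111 CPM in HFD_siNampt (-0.75, SE 0.27, corrected -0.52), with 15 of 26 genes of its list below 0. Acsl3, which activates fatty acids for storage in lipid droplets, was at 54.2 and 64.5 CPM against 42.8 and 36.6 CPM, and the siNT libraries were as low, at 45.2 and 42.2 CPM. Acacb, whose product malonyl-CoA restrains fatty acid oxidation, was at 2.00 and 2.53 CPM against 4.19 and 4.78 CPM. In beta-oxidation 16 of 25 genes lay below 0 with a median of -0.10 (corrected -0.08). Acadm, the medium-chain dehydrogenase, was at 676 and 639 CPM against 447 and 549 CPM, and Hadhb, of the trifunctional protein, at 303 and 271 CPM against 165 and 242 CPM.

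The lysosome and autophagy list held Gla, the X-linked alpha-galactosidase, at 143 CPM in both controls and 91.7 and 112 CPM in HFD_siNampt (-0.49, SE 0.14, corrected -0.40), and Atg5, which is needed to form autophagosomes, at 156 and 103 CPM against 95.0 and 97.6 CPM. The list had 3 lower members (3.08% of all genes) and 1 higher member (2.57%) at an unadjusted p under 0.05, and 24 of 38 lay below 0 (45.9%). In antioxidant defence Nqo1, a quinone reductase that uses NAD(P)H, was at 1.41 and 1.83 CPM against 4.15 and 3.69 CPM (1.27, SE 0.48, corrected 1.41). Gpx1, a glutathione peroxidase, stood at 0.32 (SE 0.13) and Prdx3, the mitochondrial peroxiredoxin, at -0.36 (SE 0.16).

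Genome maintenance genes were mixed as well. Chek1, the replication checkpoint kinase, was at 106 and 96.9 CPM against 75.3 and 77.5 CPM, and Xrcc5, the Ku80 subunit of end joining, at 65.4 and 50.6 CPM against 33.7 and 48.0 CPM. Ung, the uracil glycosylase, was at 9.99 and 14.0 CPM against 17.9 and 22.4 CPM, and Pold1, the catalytic subunit of DNA polymerase delta, at 4.05 and 4.48 CPM against 7.96 and 7.93 CPM (0.90, SE 0.29, corrected 0.46). Among p53 targets 16 of 29 lay above 0, the median was 0.04 (corrected 0.01), and 0 were at an unadjusted p under 0.05. In the apoptosis list Bok, a BCL2 relative, was at 32.6 and 28.7 CPM against 46.8 and 42.7 CPM, and Casp9, the initiator caspase of the mitochondrial pathway, at 5.49 and 5.70 CPM against 9.37 and 7.25 CPM.

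Of 19 genes of DNA methylation 15 lay above 0, and 3 were higher at an unadjusted p under 0.05 (2.57% of all genes). Dnmt3a, a de novo methyltransferase, was at 20.4 and 26.5 CPM in HFD_C and 48.1 and 28.1 CPM in HFD_siNampt, with siNT at 29.3 and 33.9 CPM, so its difference was 1.22 in batch 1 and 0.08 in batch 2. Dnmt1, which maintains methylation, was at 9.12 and 9.74 CPM against 14.8 and 13.6 CPM (0.59, SE 0.22, corrected 0.36), and Trim28, which protects imprints, at 128 and 160.4 CPM against 205 and 183 CPM. The list's median of 0.14 (corrected 0.07) was -0.01 without HFD_siNampt replicate 1.

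Replication-dependent histone genes, whose transcripts lack poly(A) tails in dividing cells, had a median of 0.42 (corrected 0.36) with 46 of 52 above 0, 0 at an unadjusted p under 0.05, and a median of -0.32 in the ND arm. The median was 0.48 for siNT against C, which shares the controls. In the list of foreign RNA sensing and interferon genes, 15 of 22 lay above 0 with a median of 0.43 (corrected 0.27), which was 0.02 without HFD_siNampt replicate 2. Ifitm2, a membrane protein that restricts viruses, was at 100.5 and 96.9 CPM against 124 and 150.2 CPM. Oas1a, a sensor of double-stranded RNA, was at 11.1 and 12.4 CPM in HFD_C, 16.1 and 23.0 CPM in HFD_siNT and 18.5 and 20.4 CPM in HFD_siNampt, so the siNT libraries were as high. Stat2, which carries interferon signals, was at 1.15 and 2.37 CPM against 3.53 and 3.28 CPM.

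**Figure D5:**
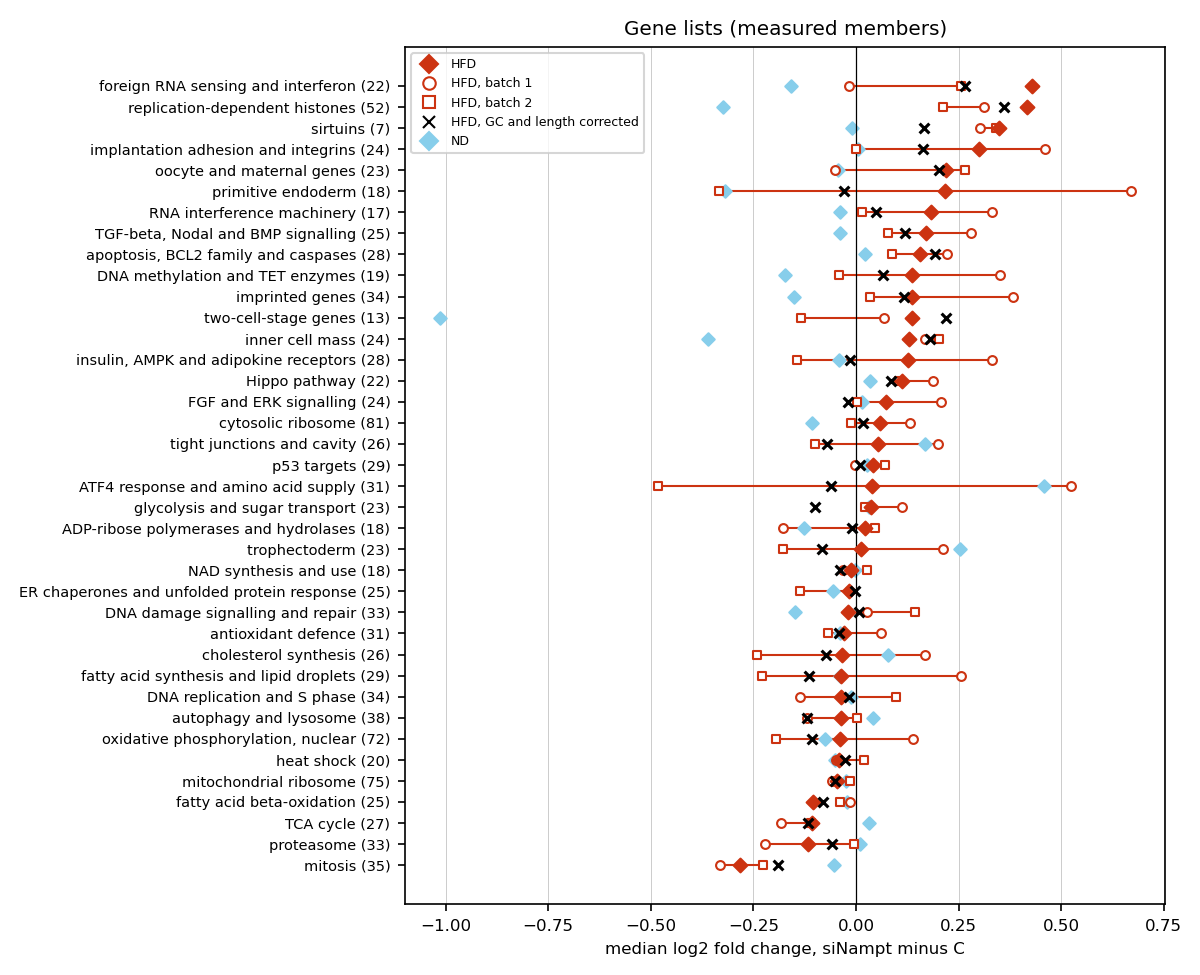
Median log2 fold change of siNampt against C (horizontal axis) for lists with at least 7 measured members other than the Y-linked genes, for HFD, each HFD batch (from log2(CPM + 0.5)), HFD after the GC and length correction, and ND. The mitosis median is the lowest in HFD at -0.28, and the primitive endoderm and ATF4 lists change sign between batches.

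The ND arm shares no library with this comparison. Of all genes, 47.9% had the same sign of siNampt against C in both arms. Of the 379 higher genes at an unadjusted p under 0.05 in HFD, 196 had the same sign in ND (51.7%), and of the 454 lower genes 182 did (40.1%). In the ND comparison 377 genes lay at an unadjusted p under 0.05 (2.56%) and edgeR called 0. The difference between the arms was tested as an interaction, in which edgeR called 0 genes, the smallest adjusted p was 0.976, and 620 lay at an unadjusted p under 0.05 (4.21%).

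The genes of smallest p in the interaction had opposite signs in the arms. Dstn, the actin-depolymerizing factor destrin, was at 1800 and 1701 CPM in HFD_C and 1261 and 1243 CPM in HFD_siNampt, but at 1369 and 1017 CPM in ND_C and 2102 and 1723 CPM in ND_siNampt. The difference between the arms was -1.16 (SE 0.23, edgeR adjusted p = 0.976), and DESeq2 gave an adjusted p of 0.0433. Tpm4, a tropomyosin of actin filaments, was at 817 and 911 CPM against 578 and 723 CPM in HFD, and at 660 and 671 CPM against 955 and 959 CPM in ND (-0.93, SE 0.20). Vps45, a protein of endosomal fusion, was at 15.5 and 15.3 CPM against 9.24 and 8.49 CPM in HFD and at 10.6 and 13.3 CPM against 18.3 and 17.6 CPM in ND (-1.38, SE 0.30). Pnpla6, a phospholipase of the endoplasmic reticulum, was at 29.0 and 24.1 CPM against 38.1 and 38.6 CPM in HFD and at 38.8 and 36.5 CPM against 22.4 and 25.8 CPM in ND (1.17, SE 0.24), but in HFD it turned to -0.15 when the GC correction was combined with leaving out HFD_C replicate 2. For these 4 genes the groups did not overlap in either arm. They were chosen by the interaction p in the same libraries, so opposite signs and separate groups largely follow from the choice and add no support.

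Against siNT, the other reference of the HFD arm, edgeR called 0 genes for siNampt, with 630 at an unadjusted p under 0.05 (4.27%), and 0 for siNT against C, with 200 at that p (1.36%). These comparisons share libraries with the one described here. Besides Cyb5a, DESeq2 called 3 genes. In Eif3j1 and Gm10052 the siNampt counts came from 1 library, and Zfp146 had few reads. Eif3j1, a gene with a near-identical copy, had 0 and 0 counts in HFD_C and 1108 and 0 in HFD_siNampt. Gm10052, a predicted gene, had 0 and 0 against 0 and 724. Zfp146, a zinc finger gene, had 71 and 64 counts against 0 and 5, with siNT at 37 and 30. It was thus low in both siNampt libraries.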

How the data were processed

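Per the submitters' processing notes, reads were processed with STAR 2.7.10 and RSEM 1.2.28 on the build mm10, and further settings, including strand, are not given in the sources used here. Per the file headers, each deposited table holds the expected counts that RSEM estimated per gene for 1 library. The deposited TPM values scale these by length and library size, per the file headers, and were used for an alternative. The FPKM values deposited by the authors were not used here. Fractional values made up 6.43% of the expected counts, which were rounded.

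Genes were kept with edgeR's filterByExpr on the 6 groups (minimum count 10). The main test was the two-sided quasi-likelihood test of edgeR 4.0.16 (R 4.3.3) on TMM-scaled counts of all 12 libraries with 1 mean per group, with Benjamini-Hochberg adjustment over all genes tested and a threshold of 0.05. SE values were obtained from the size of each log2 fold change and its F statistic (size over root F). Per-library values are TMM-scaled CPM, and values by batch are differences of log2(CPM + 0.5). The GC correction removed, in each library, the trend of log2 counts with the GC content and length of GENCODE transcripts on GRCm38, the assembly of mm10, for 14516 genes with a value. Coordinates are from RefSeq on GRCm38.p6, with 14689 genes matched.

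Named were Nampt, the 12 higher and 12 lower genes of smallest p with at least 1 CPM and groups that did not overlap, the 4 leading members by p of each of 42 gene lists, and 5 genes of the interaction. Not all of these are printed, and some genes are not reported here. Further mitosis members, Xist and genes called only by other tools were named after their values were seen. The comparison, the lists and the rule were chosen with earlier results of these data known.

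Batch labels and replicate numbers coincide, which pairs libraries across groups. Differences between replicates 1 and 2 correlated across genes at 0.122 between HFD_C and HFD_siNampt, and at -0.0889 to 0.363 over 15 pairs of groups. Alternatives were DESeq2 1.42.0, RLE scaling, no filter, the replicate block, a stricter filter (2 libraries at 5 CPM or more), limma 3.58.1 on log2(TPM + 1), only the 4 libraries compared, each library left out, the GC correction with and without these, and a Y-linked covariate. The method was also tested on simulated counts that held no GC gradient and no difference in sex composition. That test is therefore not used as support here.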

Additional observations from a re-analysis of the deposited data

How the results depend on the processing

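The count of 0 genes at an adjusted p under 0.05 in HFD_siNampt against HFD_C held under RLE scaling, the stricter filter, limma on TPM, the GC correction and the Y-linked covariate. It was 4 with DESeq2, 1 with only the 4 libraries compared, 0 to 2 with each library left out (2 without HFD_siNampt replicate 2, Supt20 and Tgoln2) and 74 without the filter, where the prior degrees of freedom were infinite against a median of 6.31. DESeq2 and the fit without a filter called 2 and 58 in ND, 5 and 83 in the interaction, 1 and 28 for siNT against C, and 2 and 68 for siNampt against siNT. The replicate block gave 0 called genes and 924 at an unadjusted p under 0.05, against 833, and changed no call in any of these comparisons. The count at an unadjusted p was 426 with only the 4 libraries, 378 (without HFD_C replicate 1) to 1442 (without HFD_C replicate 2) with each library left out, 436 with the GC correction, 528 with it and the block, and 373 to 845 with it and each library left out (498 without HFD_C replicate 2). Without the filter and with the stricter filter it was 735 and 182 in ND, 1025 and 364 in the interaction and 439 and 72 for siNT against C. For siNampt against siNT it was 998 without the filter and 357 with the GC correction.

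Of 104 genes given with values, 19 changed sign in some alternative, and the cause was not tested. With the GC correction Fau was at -0.056 and Rpl36 at -0.090, and with the replicate block added at -0.054 and -0.083. With it and without HFD_C replicate 2, values were -0.150 for Pnpla6, -0.012 for Krt8, -0.178 for Gata6, -0.132 for Fau, -0.178 for Rpl36, -0.046 for Smad7, 0.034 for Uqcrc2, -0.026 for Trim28 and -0.027 for Bok. With it and without HFD_siNampt replicate 1, they were -0.0033 for Krt8, -0.191 for Gata6, 0.030 for Dab2, -0.129 for Gata4, -0.089 for Smad7, -0.088 for Trim28, 0.029 for Bub1 and -0.0038 for Bok. With it and without HFD_siNampt replicate 2 they were -0.309 for Utf1, 0.061 for Mad2l1, -0.160 for Cdc20, -0.143 for Fau and -0.213 for Rpl36. Utf1 ranged from -0.035 without HFD_siNampt replicate 2 to 1.06 without replicate 1, Cdc20 from -0.194 without replicate 2 to 0.464 without replicate 1, and Plk1 from -0.674 without replicate 2 to 0.225 without replicate 1. With the Y-linked covariate Eif2s3y was at 0.083, Xist at -0.700, Cdc20 at -0.111 and Gm10052 at -4.59. Eif2s3y is part of the sum that forms this covariate, so its change of sign follows from the fit. Eif3j1 without HFD_siNampt replicate 1 and Gm10052 without replicate 2 had no counts in either group and so no fold change. Of the medians of gene lists under these alternatives, 600 moved by less than the spread of the batches and 172 by more. That spread is the SD of a list's own batch medians, 0.71 for primitive endoderm but 0.018 for beta-oxidation. Lists whose batches disagree are thus allowed larger moves, and these counts do not measure stability.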
